A study of Camelus dromedarius with 10 samples.

Results

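Transcription factors of the lineage of magnocellular neurones (MCNs), with close relatives, were followed in the supraoptic nucleus (SON) of the dromedary camel. The MCNs of this hypothalamic nucleus make vasopressin (AVP) and oxytocin (OXT). The members were fixed by name, with earlier results of these data known. They are OTP, SIM1, SIM2, ARNT2, POU3F1, POU3F2, POU3F3 and POU3F4. A symbol is paired with an Ensembl gene ID in the study's tables for 6 of these 8 genes, out of 22444 IDs counted. One of these tables was held only in part. No ID was paired with POU3F2 or POU3F3, which are not analysed here. Of the 6, 4 passed the filter on low counts (OTP, SIM1, ARNT2 and POU3F1), and SIM2 and POU3F4 did not.

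RNA came from the rostral SON of male Camelus dromedarius aged 4 to 5 years, ranch-housed outdoors. The control group (n = 5) had food and water freely, and the water-deprived group (WD, n = 5) had food but went 20 days without water. Each of the 10 libraries was made from stranded total RNA depleted of ribosomal RNA, and names here join the group to the replicate number of the labels (CON2, WD6). The tissue was punched from slices, so each library holds neurones, glia and vessels together, and fewer cells of a type cannot be told apart from less RNA per cell.

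Some of these factors act in sequence in the developing hypothalamus of the mouse. OTP, a homeodomain protein, and SIM1, a bHLH-PAS protein that binds DNA as a dimer with ARNT2, are each needed for the neuroendocrine cells of the paraventricular nucleus and SON, and POU3F2 (also called BRN2) acts after SIM1 and ARNT2 in cells that go on to make AVP, OXT and CRH. SIM2 is the close relative of SIM1 and uses the same partner, and POU3F1, POU3F3 and POU3F4 share with POU3F2 a POU domain of class III. In the RefSeq gene table of another dromedary assembly (mCamDro1.pat), which names all 8 members, SIM1 and POU3F2 lie on the same chromosome with 15 genes between them, of which 10 code for proteins.

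Total counts of read pairs ran from 1665098 in CON13 to 8126641 in WD9. A group of 5 gene IDs without a symbol took between 27.7% and 76.1% of a library, which left the fewest read pairs for all other genes in CON13 (397495) and WD6 (1106575). Low counts are therefore measured least precisely in these libraries, and the differences of the 4 members past the filter were also computed without both of them. Levels are given in CPM, the counts of a gene set against the size of its library, which TMM normalization adjusts for the few dominant IDs. They compare the same gene between libraries. Gene lengths of the assembly used were not at hand, so no level is ranked between genes.

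OTP was measured in every library, with 41 to 320 read pairs. In control camels its level was 24.3 CPM in CON2, 53.9 in CON3, 36.7 in CON4, 33.4 in CON5 and 49.0 in CON13. In WD camels it was 22.3 CPM in WD6, 37.2 in WD7, 24.0 in WD8, 26.9 in WD9 and 17.9 in WD15. Of the WD libraries, WD7 was above the control median, WD9 was above CON2 alone, and the other 3 were below every control library, so the groups overlapped.

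SIM1 had 58 to 1019 read pairs per library. Its control levels were 42.5 CPM in CON2, 63.6 in CON3, 103.27 in CON4, 76.1 in CON5 and 69.3 in CON13. Its WD levels were 60.7 CPM in WD6, 82.6 in WD7, 61.8 in WD8, 88.1 in WD9 and 50.8 in WD15. The whole WD range lay inside the control range, whose ends were CON2 and CON4.

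ARNT2, the dimer partner of SIM1, was counted 344 to 3919 times per library and varied least of the 4 members tested, with a coefficient of variation of 10.7% in control and 16.7% in WD camels. Control levels were 312 CPM in CON2, 396 in CON3, 349 in CON4, 363 in CON5 and 411 in CON13. WD levels were 458 CPM in WD6, 371 in WD7, 305 in WD8, 339 in WD9 and 324 in WD15. The library with the highest level, WD6, and the library with the lowest, WD8, were both from WD camels.

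POU3F1, a POU class III factor best known from Schwann cells and early neural tissue, had 5 to 52 read pairs per library. Its control levels were 11.1 CPM in CON2, 6.15 in CON3, 2.07 in CON4, 5.42 in CON5 and 5.98 in CON13. Its WD levels were 3.32 CPM in WD6, 3.06 in WD7, 4.76 in WD8, 3.11 in WD9 and 4.58 in WD15. The highest and the lowest value were both in control camels, and the 5 WD values lay between them. CON2 had the lowest level of OTP, SIM1 and ARNT2 among control libraries and the highest of POU3F1.

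SIM2 and POU3F4 were near the limit of detection. SIM2 had 27 read pairs over the 5 control libraries (9 in CON2, 0 in CON3, 2 in CON4, 10 in CON5 and 6 in CON13) and 15 over the WD libraries (0 in WD6, 5 in WD7, 9 in WD8, 0 in WD9 and 1 in WD15). POU3F4, known for its role in the inner ear, had 10 in control (6, 0, 3, 1 and 0 in the same order) and 15 in WD camels (0, 4, 4, 6 and 1). A count of 0 allows up to 3 read pairs, which is 0.26 CPM in WD9, 0.71 in CON3, 1.42 in WD6 and 3.59 in CON13, and these limits cover counting error only. The level of SIM2 was highest in CON13 at 7.17 CPM, which rests on 6 read pairs in the shallowest library, and between 0 and 1.92 CPM in the other 9.

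**Figure D1:**
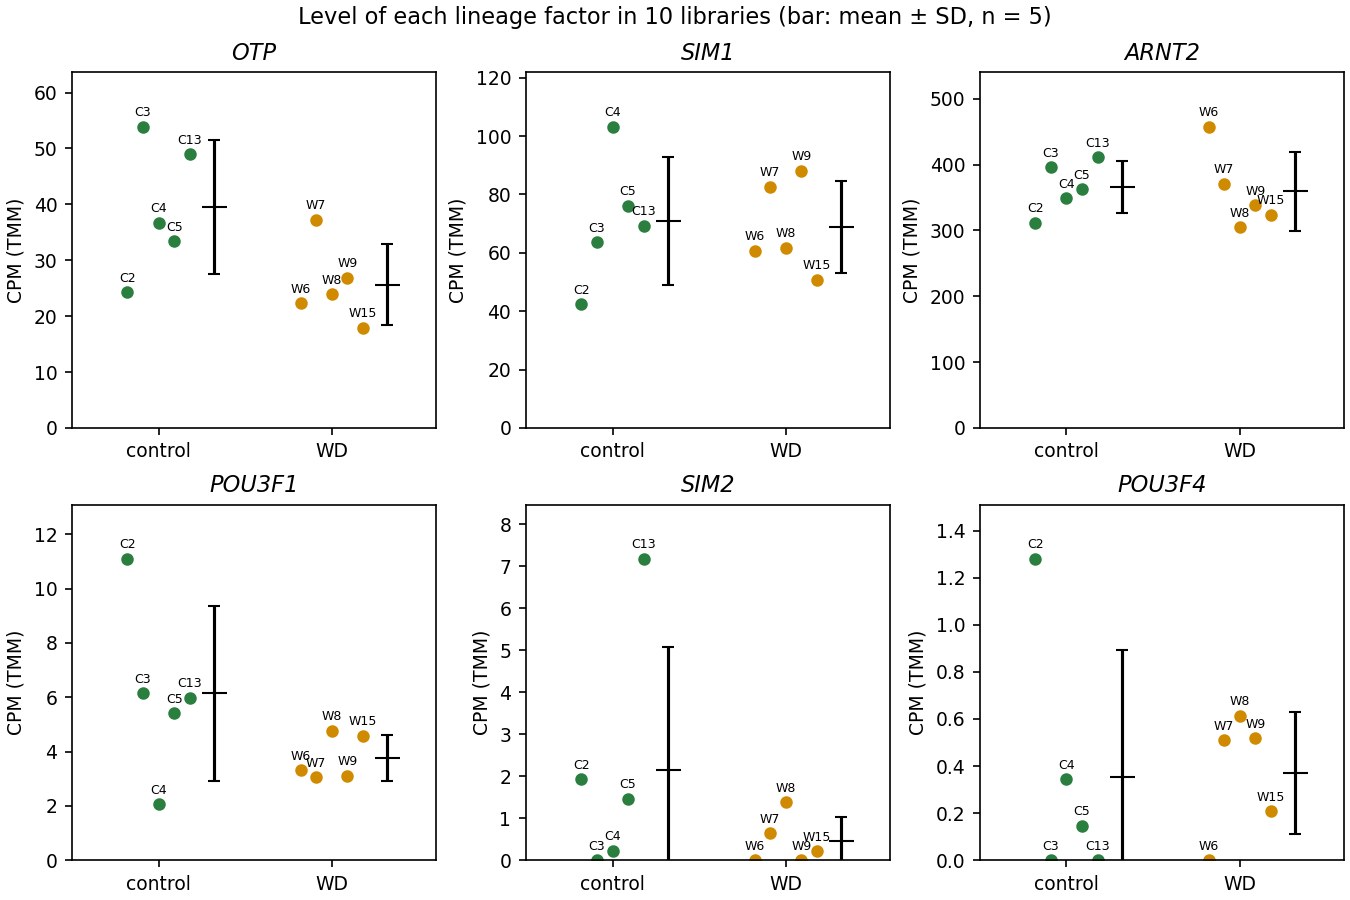
Level (CPM after TMM, linear axis from 0, each panel with its own scale) of 6 lineage factors in each control library (green, C) and WD library (orange, W), with the mean and SD of 5 libraries as a black bar that is cut at 0 where the SD exceeds the mean. In no panel do the groups separate, and for SIM2 the control mean rests on CON13.

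The quasi-likelihood F test of edgeR was run between WD and control camels on the 14432 genes that passed the filter, adjusted over all of them after Benjamini and Hochberg, with the threshold at an adjusted p (padj) of 0.05. None of the 4 members tested passed it (0 of 4), against 0.499% of all genes tested (0.27% upregulated and 0.229% downregulated). OTP alone had an unadjusted p under 0.05 (1 of 4), against 9.31% of all genes. DESeq2's Wald test also called 0 of the 5 members that it gave a padj, against 1.27% of its genes, and again 1 had an unadjusted p under 0.05. The log2 fold change (LFC) was below 0 for all 4, as for 48.1% of all genes, and no member had groups that did not overlap, against 2.62% of all genes (1.27% with all WD libraries below).

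For OTP the mean was 39.5 ± 11.98 CPM in control and 25.7 ± 7.24 in WD camels (SD, n = 5 each). This is an LFC of -0.58 with a standard error of 0.239 and a 95% interval of -1.09 to -0.08. Its padj was 0.454 in edgeR, from an unadjusted p of 0.0255, so the lower level did not pass the correction. Without CON13 and WD6 the LFC was -0.49 (edgeR padj = 0.458).

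SIM1 and ARNT2 had nearly equal means in the groups. SIM1 was at 71.0 ± 22.0 CPM in control and 68.8 ± 15.8 in WD camels (SD, n = 5 each), an LFC of -0.04 (SE 0.222, edgeR padj = 0.973). The 95% interval of its fold reached from 0.701 to 1.34. ARNT2 was at 366 ± 39.2 and 359 ± 60.1 CPM, an LFC of -0.03 (SE 0.167, edgeR padj = 0.977), and the interval of its fold was narrower, from 0.769 to 1.25. The sign of both differences turned with RNA integrity as a covariate (LFC of 0.17 and 0.01) or with library totals in place of TMM, and neither passed the threshold there.

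POU3F1 was at 6.14 ± 3.23 CPM in control and 3.77 ± 0.835 in WD camels, an LFC of -0.69 with a wide interval of -1.55 to 0.18 (SE 0.409, edgeR padj = 0.654). Without CON2, its highest library, the LFC was -0.34. SIM2 and POU3F4 entered DESeq2's test, which was run on all IDs. SIM2 had an LFC of -2.01 (SE 1.22, DESeq2 padj = 0.587), and POU3F4 had 0.0021 (SE 1.26) with no padj.

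A two-sided exact permutation test of mean log2 CPM over all assignments of 5 of the 10 libraries to a group was adjusted over the 6 members measured, and none passed. OTP had the smallest p of the 6, with a difference of -0.61, an exact p of 0.0714 and a padj of 0.429. The exact p was 0.937 for SIM1, 0.786 for ARNT2 and 0.238 for POU3F1, and without CON4 the difference of POU3F1 was -0.88 and past the threshold (exact permutation padj = 0.0476). For SIM2 it was 0.254 and for POU3F4 0.595.

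**Figure D2:**
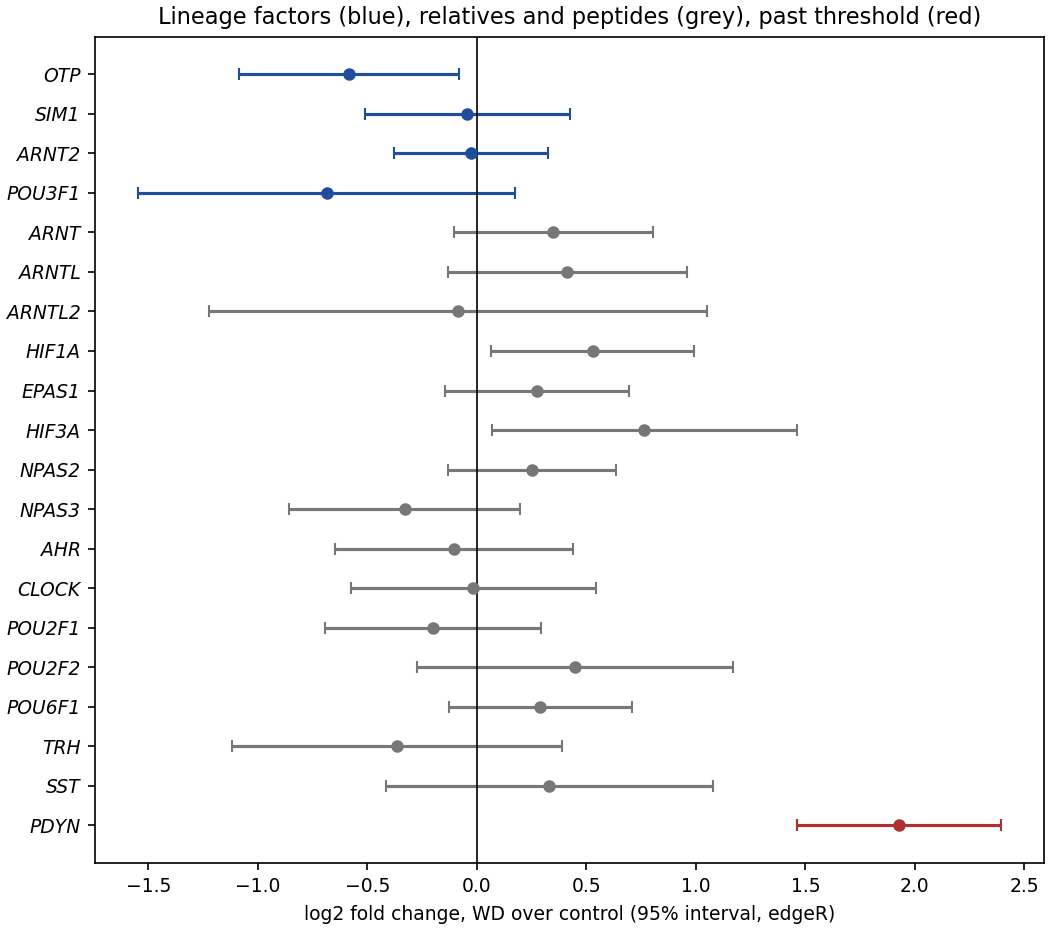
Log2 fold change of WD over control (horizontal axis) with the 95% interval from edgeR, for the 4 members tested (blue), relatives described here, TRH and SST (grey) and PDYN (red, padj at most 0.05). The intervals of SIM1 and ARNT2 are centred near 0, that of OTP runs from -1.09 to -0.08, and PDYN alone passes the threshold.

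Ratios between members within a library do not depend on normalization. The log2 ratio of ARNT2 to SIM1 was 2.42 ± 0.430 in control and 2.40 ± 0.389 in WD camels (SD, n = 5 each), a difference of -0.02 (exact permutation p = 0.960, padj over 3 ratios = 0.960). Single libraries ranged from 1.76 in CON4 to 2.91 in WD6. The log2 ratio of OTP to SIM1 was -0.84 ± 0.507 in control and -1.43 ± 0.204 in WD camels. The difference of -0.59 did not pass the correction (exact permutation p = 0.0635, padj = 0.0952). Without CON4, the control library with the lowest ratio, it was -0.75 with a padj of 0.0476 by the same exact test.

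ARNT, which forms the same kind of dimers as ARNT2 but in most tissues, was at 20.6 ± 3.42 CPM in control and 26.5 ± 7.60 in WD camels, an LFC of 0.35 (edgeR padj = 0.671). The log2 ratio of ARNT2 to ARNT was 4.15 ± 0.303 in control and 3.78 ± 0.280 in WD camels, a difference of -0.37 (exact permutation p = 0.0635, padj = 0.0952). In 4 of 5 WD libraries the ratio was below that of every control library, and WD7 was above CON2, CON5 and CON13.

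**Figure D3:**
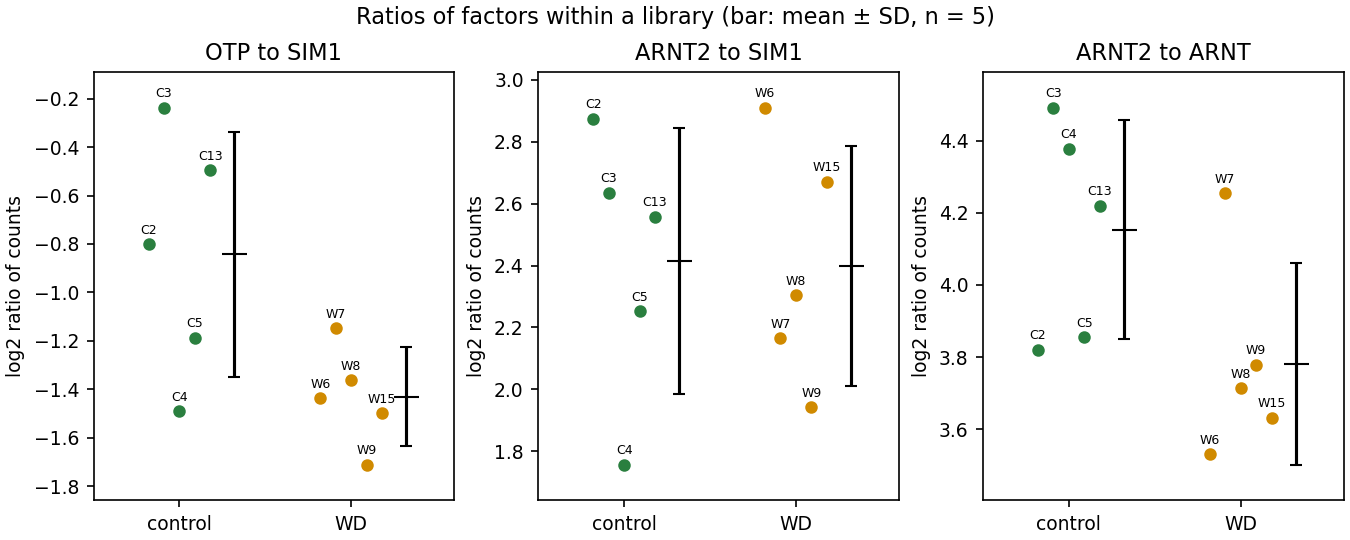
Log2 ratio of counts of a pair of factors within each library (vertical axis, each panel with its own scale) in control (green, C) and WD (orange, W) camels, with the mean and SD of 5 libraries. The ratio of ARNT2 to SIM1 has nearly the same mean in both groups, and the other ratios are lower on average in WD camels with groups that overlap.

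Transcripts of peptides made by cells of this lineage were read beside the factors. Of 8 peptide genes listed, 6 were paired with an ID, 3 passed the filter, 1 was upregulated (against 0.27% of all genes) and 0 were downregulated (against 0.229%), with a median LFC of 0.33 against 0.02 over all genes. The gene upregulated was PDYN, whose rise was known when the list was made. No ID was paired with AVP or OXT, which are not analysed here. PDYN, which encodes prodynorphin, an opioid precursor stored with AVP in MCNs, was among the genes that the study followed up. Its control levels were 122 CPM in CON2, 114 in CON3, 186 in CON4, 227 in CON5 and 163 in CON13. Its WD levels were 712 CPM in WD6, 761 in WD7, 439 in WD8, 621 in WD9 and 559 in WD15, and every WD library was above every control library. The means were 162 ± 46.4 and 618 ± 127 CPM (SD, n = 5 each), an LFC of 1.93 (SE 0.221, edgeR padj = 3.02e-04).

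Within each library PDYN was therefore set against each of the 4 members tested, a comparison chosen with the rise of PDYN known. The log2 ratio of PDYN to SIM1 ran from 0.84 to 1.57 in control and from 2.82 to 3.55 in WD camels. The difference in log2 ratio between the groups was 2.56 for PDYN to OTP, 1.97 to SIM1, 1.99 to ARNT2 and 2.501 to POU3F1. Each difference holds the rise of PDYN together with the difference of the member itself, and they are given as a description, with no test.

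TRH, the releasing hormone of the thyroid axis made by parvocellular cells of the same lineage, was at 20.7 ± 10.4 CPM in control and 15.9 ± 6.59 in WD camels (LFC of -0.37, edgeR padj = 0.820). SST (somatostatin), an inhibitor of growth hormone release, was at 7.80 ± 3.53 CPM in control and 10.9 ± 6.16 in WD camels (LFC of 0.33, edgeR padj = 0.840), with the highest level in WD6. CRH, the releasing hormone of the stress axis, had 33 read pairs over all 10 libraries, GAL (galanin) 16 and CCK (cholecystokinin) 52, and none of the 3 passed the filter. VIP and SIX6, which mark the neighbouring suprachiasmatic nucleus, had 32 and 30 read pairs over all libraries. On the same list RORB had 817 and SIX3 316, the 2 members that passed the filter, both named after their values were seen.

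Relatives of the members in the same protein families were taken from lists fixed by name, with earlier results of these data known. Of 17 IDs of bHLH-PAS genes, 12 passed the filter, SIM1 and ARNT2 included, and 0 were past the threshold in either direction (against 0.499% of all genes). The median LFC was 0.12, against 0.02 over all genes tested, and 2 had an unadjusted p under 0.05 (against 9.31% of all genes). These were HIF1A, the hypoxia-inducible factor (LFC of 0.53, edgeR padj = 0.466), and its relative HIF3A (LFC of 0.76, edgeR padj = 0.484), the latter named after its values were seen. HIF3A was at 46.5 CPM in WD6, between 9.69 and 21.3 in the other WD libraries and between 8.84 and 16.8 in control camels, so WD6 stood apart. EPAS1, the endothelial hypoxia-inducible factor, had an LFC of 0.28 (edgeR padj = 0.727). NPAS4, which is induced by neuronal activity, did not pass the filter, and its level was between 0.34 and 4.49 CPM in control and between 0.42 and 10.9 in WD camels, with the highest value in WD6 from 23 read pairs.

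Among the 13 IDs of POU genes described here, 4 passed the filter and 0 were past the threshold, against 0.499% of all genes tested. Their median LFC was 0.05, against 0.02 over all genes. With so few genes tested, 0 past the threshold says little about any list in this paragraph. POU6F1 was at 36.5 ± 7.38 CPM in control and 43.9 ± 10.7 in WD camels (LFC of 0.29, edgeR padj = 0.707), and POU2F1 had an LFC of -0.20 (edgeR padj = 0.856). Of factors that mark other hypothalamic territories, 7 of 22 IDs passed the filter and 0 were past the threshold (again against 0.499%, median LFC of 0.21). Of telencephalic factors, which would mark cortex or basal forebrain in the punch, 2 of 7 passed the filter. Of these 2, 0 were past the threshold (again against 0.499%), and their median LFC was -0.75. Their summed level was 63.4 CPM in CON13, between 20.3 and 25.5 in the other control libraries and between 12.5 and 22.7 in WD camels, so CON13 stood apart. CON13 is the shallowest library, where 3 read pairs are 3.59 CPM. It also had the highest sums of POU genes (115 CPM, against at most 96.3 elsewhere) and of factors of other territories (70.5, against at most 67.4). The part of CON13 in the median of the telencephalic factors was not tested.

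The 4 members tested were correlated in pairs across the 10 libraries. Of 6 pairs, SIM1 and POU3F1 alone were correlated past the threshold, with r = -0.79 (permutation p = 0.00599, padj over 6 pairs = 0.0359). Spearman's rho was -0.62 (permutation p = 0.0605, padj = 0.287), so the ranks did not pass. Without CON2 and CON4, the libraries farthest from the median of SIM1, r was -0.38. The pooled r therefore leans on these libraries, whose removal also narrows the range of SIM1. Within WD camels, which include neither, r was -0.79 over 5 libraries, and within control camels -0.96. With group means subtracted r was -0.89 over the 10 libraries, CON2 and CON4 included. With CON2, CON3, CON4, WD7, WD8 or WD9 left out singly the padj missed the threshold, with r of -0.65 without CON2, -0.70 without CON4 and between -0.80 and -0.78 without each of the other 4. With library totals in place of TMM r was 0.15 for SIM1 and POU3F1, and 3 other pairs passed the threshold, OTP and SIM1 (0.78), OTP and ARNT2 (0.80) and SIM1 and ARNT2 (0.90). OTP and SIM1 had r = 0.46 and rho = 0.56 (permutation p = 0.184 and 0.0958, padj = 0.418 and 0.287). For OTP and ARNT2 r was 0.43 and rho 0.48 (permutation p = 0.209 and 0.166, padj = 0.418 and 0.333), and r was 0.90 without WD6 (permutation padj = 0.0087). SIM1 and its partner ARNT2 had r = 0.20 and rho = 0.21 (permutation p = 0.580 and 0.560, padj = 0.696 and 0.839).

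**Figure D4:**
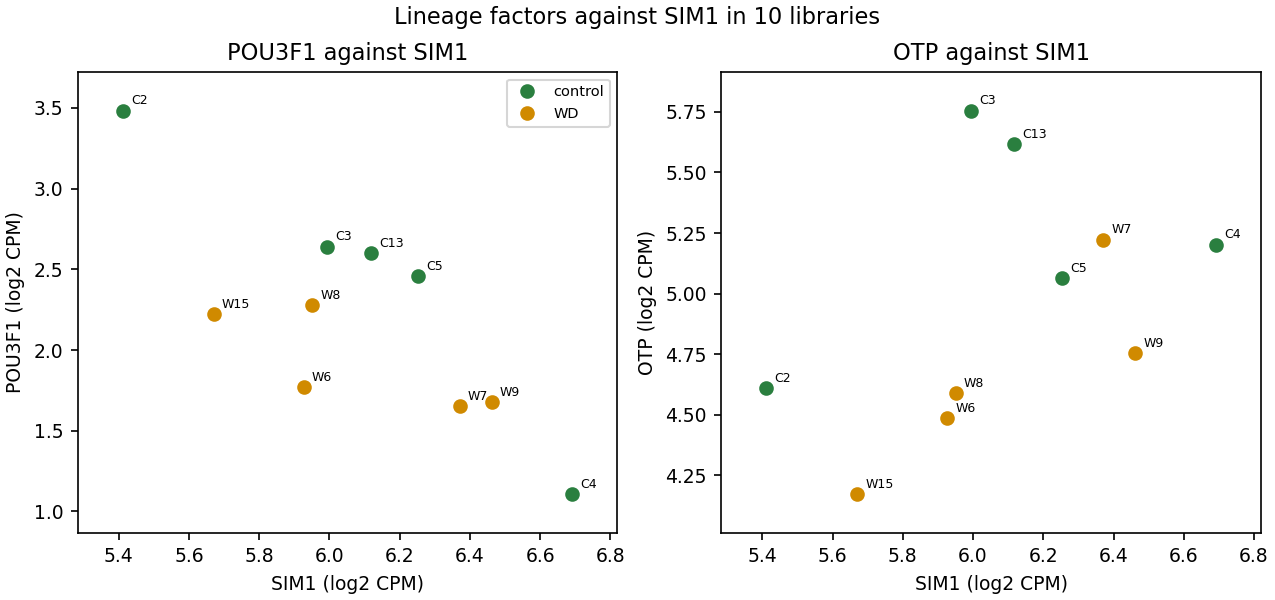
Log2 CPM of POU3F1 (left) and OTP (right) against log2 CPM of SIM1 in 10 libraries, control in green (C) and WD in orange (W). CON2, with the lowest SIM1, and CON4, with the highest, lie at opposite ends of POU3F1, and r without these libraries is -0.38. Within WD camels alone r is -0.79.

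RNA integrity moved with the level of SIM1. Relations of the 4 members to the RNA integrity number and to the read pairs left outside the 5 dominant IDs were computed after the data were seen, 8 relations in all. SIM1 and RNA integrity had r = 0.82 (permutation p = 0.00354, padj over 8 relations = 0.0283) and rho = 0.88 (permutation p = 0.00148, padj = 0.0118). Without WD8 and WD15, the libraries farthest from the median integrity, r was 0.87, and within the groups it was 0.89 in control and 0.96 in WD camels, each over 5 libraries. OTP had r = 0.72 and rho = 0.69 (permutation p = 0.0219 and 0.0326, padj = 0.0877 and 0.0887), and with integrity as a covariate its LFC was -0.42 (edgeR padj = 0.545). For POU3F1 r was -0.44 overall (permutation p = 0.209, padj = 0.375), -0.83 within control and -0.90 within WD camels. With integrity as a covariate the LFC of POU3F1 was -0.85 with an unadjusted p of 0.0378 (edgeR padj = 0.484), while the unadjusted p of OTP was 0.0597, so POU3F1 in place of OTP had an unadjusted p under 0.05 there. ARNT2 had r = 0.33 (permutation p = 0.344, padj = 0.393). None of the 4 relations to read pairs passed the correction. Among them SIM1 had r = 0.38 and rho = 0.67 (permutation p = 0.281 and 0.0382, padj = 0.375 and 0.0887), with r of 0.84 without CON13 and WD6. POU3F1 had r = -0.39 and rho = -0.66 (permutation p = 0.263 and 0.0443, padj = 0.375 and 0.0887), with r of -0.78 without these libraries. For ARNT2 r was -0.58 and rho -0.45 (permutation p = 0.0744 and 0.190, padj = 0.199 and 0.253), and r was 0.05 without them. The part of RNA integrity in the levels of SIM1 was not tested beyond this.

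The 3 genes with a symbol whose levels were most like those of each member were named by Pearson's r of log2 CPM over the 10 libraries after group means were subtracted, among 2836 genes with a mean of at least 5 CPM. These values are a description, and the points share depth, RNA integrity and the makeup of the punch. For OTP they were CTSB, a lysosomal protease (r = 0.91), ELP3 of the Elongator complex (r = 0.90) and DZANK1 (r = 0.89). For SIM1 they were RPS6KC1 (r = 0.97), AP1S2, a subunit of a clathrin adaptor (r = 0.96), and BTBD11 (r = 0.95). For ARNT2 they were MAST1, a kinase (r = 0.97), CELSR2, an adhesion receptor (r = 0.96), and CHD5, a chromatin remodeller of neurones (r = 0.96). The members themselves were not among each other's 3, and POU3F1 was below the level required.

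Markers of cell types in the punch were read beside the lower mean of OTP. Of the 7 IDs of neurone markers described here, all passed the filter, 6 had an LFC below 0 (48.1% of all genes), 5 had an unadjusted p under 0.05 (9.31% of all genes), and the median LFC was -0.46. The smallest padj among these 7 was 0.0963 in edgeR. Their summed level was between 563 and 738 CPM in control and between 309 and 687 in WD camels. Their part in the level of OTP was not tested.

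Of glial and vascular markers, 0 were past the threshold, against 0.499% of all genes tested. All 6 microglia markers had an LFC above 0 (median of 0.78, 5 with an unadjusted p under 0.05, against 9.31% of all genes). Their summed level was between 165 and 253 CPM in control, 576 in WD15 and between 187 and 336 in the other WD libraries. Of astrocyte markers, 4 of 6 were paired with an ID, all 4 had an unadjusted p under 0.05 (again against 9.31%), 3 were above 0 and the median LFC was 0.52. Their summed level was between 311 and 423 CPM in control and between 479 and 627 in WD camels. The sum was mostly ALDOC, with a mean of 276 CPM in control and 415 in WD camels. ACSBG1 went the other way (LFC of -0.81, edgeR padj = 0.416). Both were named after their values were seen. The median LFC was -0.16 over 7 oligodendrocyte markers, with sums of 125 to 338 CPM in control and 132 to 261 in WD camels. Over 6 endothelial markers it was 0.41, with 5 above 0, 3 with an unadjusted p under 0.05 (against 9.31% of all genes) and sums of 120 to 194 CPM in control and 151 to 287 in WD camels. Suprachiasmatic markers, with 2 of 7 IDs past the filter, summed to between 21.6 and 27.5 CPM in control and between 17.1 and 25.4 in WD camels.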

How the data were processed

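Punches of the rostral SON from 5 control camels and 5 WD camels gave 1 library each, sequenced from both ends. The authors merged paired files, trimmed adaptors with BBDuk, aligned them to Camdro2 with STAR and counted read pairs per gene with FeatureCounts. They deposited these counts, whole numbers without normalization for 22444 IDs. The authors also deposited a normalized signal, each count divided by a DESeq2 size factor of its library (largest relative departure 5.4e-10), used here only as a check. The strand setting and annotation release are not given in the sources used here, so reads shared with overlapping or antisense genes cannot be told apart.

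Symbols came from the study's tables, which pair 4316 IDs here. One table was held only in part, so a gene without an ID here may have one in the full table. Counts were tested with edgeR 4.0.16 in R 4.3.3 (TMM, filterByExpr by group, robust quasi-likelihood fit, 14432 genes, biological coefficient of variation 0.285), with DESeq2 1.42.0 as an alternative. Log2 values use a prior count of 0.5. Ratios use log2 of counts plus 0.5. Exact tests enumerated every assignment of libraries to groups. Correlations used Pearson's r and Spearman's rho with 1e+05 resamples, two-sided (Python 3.11.15, scipy 1.17.1). The edgeR step was tested on simulated data. Camels are separate animals.

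The members and lists were chosen with earlier results of these data known. Named genes were the members, reported list genes past the threshold, a set of relatives and peptides fixed by name (ARNT, NPAS4, HIF1A, EPAS1, POU2F1, POU6F1, CRH, TRH, PDYN, GAL, CCK, VIP and SIX6), and the 3 genes most like each member. Some genes of the lists are not reported here and were left out of the list counts, medians and sums. RNA integrity numbers came from the study's sample sheet. Alternatives were DESeq2's Wald test or size factors, library totals, no filter, a fit that is not robust, covariates (RNA integrity, fragments under 300 bp, depth group), CON13 and WD6 left out together, each library left out in turn, and, for ratios, a pseudocount of 1. Ratios of PDYN and the relations to RNA integrity and depth were added after the data were seen. Depth was 1665098 to 8126641 counts per library.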

Additional observations from a re-analysis of the deposited data

Results flagged for a closer look

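Groups of 5 values were examined for a single library far from the others. Its gap to the nearest other value, over the range, had to be above Dixon's limit for 95%. Such a library was found in 2 of 18 groups. SIM2 and POU3F4 were examined as CPM, and the other members and the ratios as log2 values. Chance gives about 1 in 20 for normally distributed values, a rate that need not hold for CPM from few read pairs. SIM2 in control camels was highest in CON13, at 7.174 CPM from 6 read pairs, with a gap of 0.732 of the range. POU3F4 in control camels was highest in CON2, at 1.281 CPM from 6 read pairs, with a gap of 0.731 of the range. Neither gene passed the filter on low counts.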

How the results depend on the processing

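No paired analysis was possible because the groups share no replicate numbers. No member passed the threshold in the whole-table test under any alternative run, and OTP and POU3F1 stayed lower in WD camels in all of them. The count of genes past the threshold was 72 and became 209 with DESeq2, 10 with library totals and 224 with depth group as a covariate, and 40 to 102 with 1 library left out (40 without CON3, 42 without CON5 and 102 without WD6). Library totals moved the median LFC of all genes from 0.02 to 0.16. With them the LFC was 0.16 for SIM1 and 0.10 for ARNT2, and with RNA integrity as a covariate 0.17 and 0.0085. The permutation differences with library totals were 0.12 for SIM1 and 0.10 for ARNT2. Correlations with library totals were 0.78 for OTP and SIM1, 0.80 for OTP and ARNT2, 0.90 for SIM1 and ARNT2 (all past the threshold), 0.15 for SIM1 and POU3F1 and 0.45 for ARNT2 and POU3F1. The cause was not tested.

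With 1 library left out, the LFC was -0.21 to 0.13 for SIM1 and -0.13 to 0.013 for ARNT2. The permutation difference was -0.19 to 0.13 for SIM1, -0.13 to 0.0195 for ARNT2 and -0.88 to -0.28 for POU3F1, the last past the threshold without CON4 (exact permutation padj = 0.0476). Correlations were 0.32 to 0.90 for OTP and ARNT2 (past the threshold without WD6), -0.14 to 0.24 for OTP and POU3F1, -0.061 to 0.40 for SIM1 and ARNT2, -0.31 to 0.10 for ARNT2 and POU3F1, and -0.86 to -0.65 for SIM1 and POU3F1, the last no longer past the threshold without CON2, CON3, CON4, WD7, WD8 or WD9. The log2 ratio difference was -0.18 to 0.10 for ARNT2 to SIM1 and -0.75 to -0.44 for OTP to SIM1. PDYN passed the threshold in all 10 such fits and all 9 other alternatives. SIM2 and POU3F4 rest on 42 and 25 read pairs in all, which limits their precision.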
